A study of Mus musculus with 27 samples.

Results

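The genes described here are the transcription factor gene Myc and 34 genes that build ribosomes, followed across mouse macrophages treated with interleukin 4 (IL4) or a glucocorticoid. The 35 genes were taken by name from a table of 29872 genes, and all 35 were expressed above the filter on low counts, among 14589 genes that were tested. Besides Myc, they comprised 7 genes for RNA polymerase I and nucleolar scaffold proteins, 4 for the box C/D snoRNP, 4 for the H/ACA snoRNP, 7 for assembly of the small ribosomal subunit and 12 for assembly of the large subunit. snoRNPs are particles of a small nucleolar RNA and proteins that modify ribosomal RNA.

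Ribosomes are made in the nucleolus. RNA polymerase I copies the ribosomal RNA precursor, box C/D particles methylate it, H/ACA particles convert chosen uridines to pseudouridine, and assembly factors fold, cut and export the subunits. Myc binds the promoters of many of these genes together with its partner Max and is known as a general regulator of ribosome production and cell growth. In macrophages, Myc is known to be induced by IL4, and glucocorticoids are known to restrain growth in several cell types.

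Marrow of male C57BL/6 mice, 8 to 10 weeks of age, was cultured for 5 days to give macrophages, in 20% bovine serum and 10% medium conditioned by L cells, which secrete the macrophage growth factor CSF1. Wild-type cells carried LysM-Cre+/+ and GRIP1wt/wt by their genotype label (their titles say BL6), and knockout cells carried LysM-Cre+/+ and GRIP1fl/fl, so by these labels both genotypes carried Cre. LysM-Cre acts in myeloid cells, and GRIP1, encoded by Ncoa2, is a coregulator of the glucocorticoid receptor. Cells of each genotype received vehicle, IL4 at 10 ng/ml, corticosterone at 500 nM (the main glucocorticoid of mice) or dexamethasone at 100 nM (a synthetic one) for 24 h. There were 3 libraries in each wild-type group and in the knockout IL4 group, and 4 in the other knockout groups, 27 in all. Whether each library stands for its own animal is not stated, and p-values therefore reflect the spread between libraries, part of which may be technical.

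Library totals ranged from 20162729 to 48023102 counts. Ncoa2 was at 55.7 to 93.4 CPM (counts of a gene over the scaled library total, as a rate) in the 12 wild-type libraries and at 16.1 to 26.0 CPM in the 15 knockout libraries, a count over the whole gene, which takes in exons that a floxed deletion may leave. The 9 macrophage markers looked at summed to 5904 to 7340 CPM, and all were detected in every library. Stromal markers (6 genes, Col1a1 and Col1a2 the most abundant) summed to 148 to 768 CPM in wild-type libraries and 10.0 to 41.2 CPM in knockout libraries. Neutrophil markers (7 genes, Ly6g at 0 in 23 of 27 libraries) summed to 47.2 to 344 CPM and 5.34 to 16.8 CPM. In every wild-type group the library numbered 1 had the most of both. B cell, T and NK cell, mast cell, dendritic cell and erythroid markers each summed to at most 5.60 CPM, progenitor markers to 11.5 to 51.5 CPM and endothelial markers to 8.22 to 17.5 CPM. Outside the IL4 groups, Arg1, an enzyme gene that IL4 induces, was at 67.1 to 117 CPM in 4 libraries (knockout vehicle 2 and 3, wild-type dexamethasone 1, knockout dexamethasone 2) and at 12.2 CPM or less in the others. Many counts of calls that rest on these 4 libraries are given with and without them, and others only with them. Other libraries of the same numbers were kept when these 4 were left out, which can move a difference by itself.

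Levels of the 35 genes spanned a wide range in resting wild-type cells. Compared per kilobase of exon, Npm1, a histone chaperone that shuttles through the nucleolus, was highest at 132 ± 16.8 CPM per kb (SD, n = 3). Nhp2, an H/ACA protein, followed at 96.4 ± 10.2, and Ncl, which encodes nucleolin, at 63.3 ± 2.61 CPM per kb. Myc stood 11th at 31.7 ± 2.94 CPM per kb, beside Rrs1 at 31.4 ± 3.07, a difference within their spread. Wdr12 at 3.92 ± 0.16 and Rrp1b at 2.85 ± 0.13 CPM per kb were lowest. Summed over the 35 genes, levels ran from 2922 CPM in knockout dexamethasone library 1 to 4203 CPM in wild-type IL4 library 1. Of these genes, 18 share exon bases with another gene, and 3 share more than 5% with a gene on the opposite strand: Tsr1 with Srr (32.3%), Noc2l with Samd11 (20.9%) and Nop14 with Gm15522 (5.3%). The strand setting used in counting is unknown here, and values of these 3 are less certain for that reason.

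Promoter sequences were searched because the genes share a proposed regulator and were exposed to 2 kinds of ligand with known DNA-binding factors. RefSeq promoters (GRCm38.p6) were matched for 29 of the 35 genes, in 33 windows, since Wdr12, Noc2l and Rrp1b have more than 1 start. For 26 of the 33 windows, the bases just past the start lay in a GENCODE transcript of the gene. The other windows were searched as well. There was no entry for Myc, Npm1, Fbl, Rrp12, Bop1 and Rrs1. In the 250 bases before the start, CACGTG (the E-box that Myc and Max bind) was found in 1 of 29 (3.45%), against 9.9% of the 10614 tested genes with an entry; a gene counts when any of its windows holds the string. TTCNNNNGAA, the spacing that the IL4-activated factor STAT6 prefers, was found in 4 of 29 (13.8%), namely Ddx21, Dkc1, Nop14 and Nop16, against 5.82%. ACANNNTGT, the core of a glucocorticoid receptor element, was found in 1 of 29 (3.45%), Rrp1b, against 4.48%. In Rrp1b it lies in the window of the second start (chr17:32048035-32048284), inside the gene as GENCODE gives it (from 32036100), and the window at the first start holds none. Each of these motifs reads the same on both strands, and a match is a string of letters, not a shown site. Nop2 is printed as the promoter with the E-box, 60 bases before the start; of the 4 genes with the STAT6 string, Dkc1 and Nop16 (15 bases before the RefSeq start) are printed as those called between IL4 and dexamethasone in wild type. Ddx21 and Nop14 were called in that comparison in knockout and are not printed. The Nop16 string lies inside the gene as GENCODE gives it, which on the minus strand begins at 54590090. Capitals mark the matched strings, and each sequence is the gene's own strand from 5′ to 3′.
Nop2, chr6:125131633-125131882, plus strand: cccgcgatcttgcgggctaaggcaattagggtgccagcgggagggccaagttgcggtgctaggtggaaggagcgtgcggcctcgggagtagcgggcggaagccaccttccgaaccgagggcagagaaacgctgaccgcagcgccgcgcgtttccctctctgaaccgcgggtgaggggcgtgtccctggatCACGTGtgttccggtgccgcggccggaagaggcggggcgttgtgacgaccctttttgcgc
Dkc1, chrX:75095604-75095853, plus strand: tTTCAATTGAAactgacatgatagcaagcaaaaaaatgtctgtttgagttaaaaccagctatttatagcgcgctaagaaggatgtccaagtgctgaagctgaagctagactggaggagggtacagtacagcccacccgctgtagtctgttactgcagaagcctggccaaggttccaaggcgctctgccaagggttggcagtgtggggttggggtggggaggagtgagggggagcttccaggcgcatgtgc
Nop16, chr13:54590075-54590324, minus strand: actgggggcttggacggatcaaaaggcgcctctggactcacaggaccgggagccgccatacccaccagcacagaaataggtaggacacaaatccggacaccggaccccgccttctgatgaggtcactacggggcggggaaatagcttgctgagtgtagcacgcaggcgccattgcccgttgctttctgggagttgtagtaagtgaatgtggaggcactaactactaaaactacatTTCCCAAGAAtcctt

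Myc was highest in IL4-treated cells of both genotypes. In wild type it was at 80.7, 95.4 and 82.7 CPM with vehicle and at 102, 125 and 117 CPM with IL4. These groups did not overlap, yet the fitted log2 difference of 0.41 ± 0.23 (SE; 95% interval -0.08 to 0.90) did not pass the test (edgeR adjusted p = 0.21). In knockout cells Myc was at 78.7, 116, 101 and 69.2 CPM with vehicle and at 123, 134 and 190 CPM with IL4. Here it rose by 0.71 ± 0.22 on the log2 scale (1.64-fold; adjusted p = 0.018). The library at 190 CPM is number 4, and without the knockout libraries numbered 4 the difference was 0.38 (adjusted p = 0.38). The vehicle libraries at 116 and 101 CPM are 2 of the 4 high in Arg1, and without those 4 the difference was 1.00 (adjusted p = 0.00074).

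With glucocorticoid, Myc in wild type overlapped the vehicle libraries. Its corticosterone libraries were at 78.4, 94.0 and 73.9 CPM and its dexamethasone libraries at 85.6, 97.6 and 70.1 CPM. The log2 differences from vehicle were -0.07 ± 0.23 (interval -0.56 to 0.42) and -0.03 ± 0.23 (interval -0.52 to 0.46). In knockout cells Myc was at 58.6, 73.4, 55.6 and 58.6 CPM with corticosterone and at 46.7, 102, 48.6 and 68.5 CPM with dexamethasone. Most of these libraries were below most vehicle libraries, but the groups overlapped. The log2 differences were -0.57 ± 0.20 (adjusted p = 0.078) and -0.46 ± 0.20 (adjusted p = 0.13). With the replicate number as a block, where knockout corticosterone and vehicle pair only weakly by number, the former was -0.56 (adjusted p = 0.031). Without the 4 libraries high in Arg1 it was -0.28 (adjusted p = 0.50). The knockout dexamethasone library at 102 CPM is 1 of those 4.

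**Figure D1:**
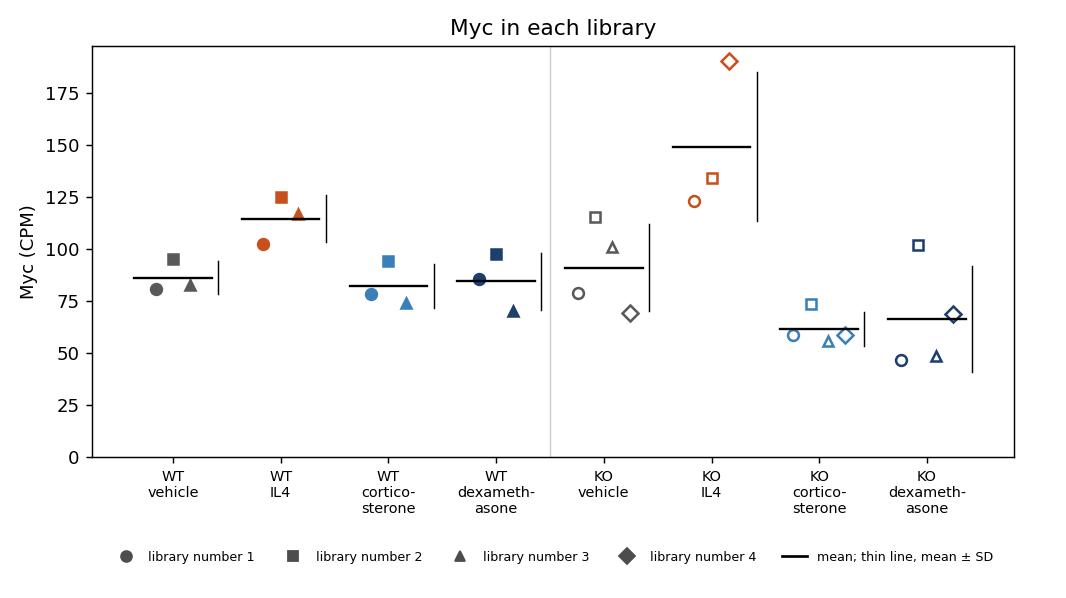
Myc in each of the 27 libraries, in CPM (vertical axis, from 0), by genotype and treatment; markers show library numbers, thick bars the mean and thin lines the SD. All 6 IL4 libraries lie at 102 CPM or above, and 1 of them, in knockout cells, at 190 CPM.

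In wild-type cells IL4 raised 3 of the 35 genes and lowered none, beside 14.8% of all tested genes called higher and 15.3% called lower. The 3 were Rrs1, Heatr1 and Ppan. Their share, 8.57%, is below the share of all genes that rose. The typical difference was small and positive: the median log2 difference of the 35 genes was 0.14, beside -0.01 over all genes tested, and 31 of 35 differences were above 0.

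Rrs1, a factor that brings the 5S RNA particle into the large subunit, was at 71.4, 59.5 and 61.9 CPM with vehicle and 108, 104 and 95.5 CPM with IL4. Every IL4 library was above every vehicle library, and Rrs1 rose by 0.67 ± 0.18 (1.59-fold; adjusted p = 0.0047). Heatr1, a small subunit factor also needed for polymerase I transcription, was at 121, 119 and 120 CPM and then 147, 140 and 146 CPM. It rose by 0.27 ± 0.08 (adjusted p = 0.0175), and its groups did not overlap. Ppan, a large subunit factor, was at 47.4, 41.5 and 41.5 CPM and then 54.6, 54.4 and 53.2 CPM, and it rose by 0.31 ± 0.12 (adjusted p = 0.0435). Just outside the threshold were the H/ACA protein gene Gar1 (0.32 ± 0.12, adjusted p = 0.054), the large subunit factor Nop16 (0.27 ± 0.11, adjusted p = 0.065) and the nucleolar scaffold gene Nolc1 (0.31 ± 0.13, adjusted p = 0.073).

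The other genes did not pass and are given by role. Among polymerase I and scaffold genes, log2 differences ran from -0.16 for Polr1a to 0.20 for the RNA helicase gene Ddx21, with Mybbp1a at 0.16, Polr1b at 0.08 and Ncl and Npm1 at 0.06. The box C/D genes ran from 0.00 for Nop56 over Nop58 (0.04) and Rrp9 (0.12) to 0.18 for Fbl, which encodes the methyltransferase fibrillarin. Of the H/ACA genes, Nop10 was at 0.02, Nhp2 at 0.11 and Dkc1 at 0.29. Small subunit factors ran from -0.03 for Ddx10 and -0.00 for Noc4l through Nop14 (0.14), Ltv1 (0.16) and Rrp12 (0.22) to 0.30 for the GTPase-like factor gene Tsr1. Large subunit factors ran from -0.02 for Rrp1b to 0.30 for Gnl3. The members of the PeBoW complex, which processes the large subunit RNA, were at 0.13 (Bop1), 0.10 (Pes1) and 0.07 (Wdr12), and Noc2l, Noc3l, Nop2 and Nip7 at 0.09 to 0.17.

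Wild-type libraries of the same number deviated together, so they were also compared within numbers. With the number as a block, 11 of the 35 genes rose and none fell, beside 19.6% and 20.4% of all genes. To the 3 above this fit added Nop16, Tsr1, Gnl3, Gar1, Ddx21, Nolc1, Dkc1 and Nop2, at log2 differences of 0.16 to 0.33. Across the 3 same-numbered pairs, 27 of the 35 genes were higher with IL4 in every pair and 1 was lower, Polr1a, the catalytic subunit of polymerase I. Of all tested genes, 32.9% were higher and 35% lower in every pair. A fit of the wild-type vehicle and IL4 libraries alone called 8 of the 35, all higher, beside 15.9% of all genes higher and 13.7% lower.

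In knockout cells IL4 raised 7 of the 35 genes and lowered none, beside 14.5% and 12% of all genes. The median difference was 0.16, beside 0.01 over all genes. Besides Myc, the 7 were 3 large subunit factors (Noc3l, Ppan and Gnl3, the last encoding nucleostemin), 2 small subunit factors (Heatr1 and Ltv1) and the scaffold gene Nolc1. Heatr1 and Ppan are the 2 genes called in both genotypes. Noc3l was at 30.6, 30.1, 31.4 and 28.6 CPM with vehicle and at 34.0, 37.5 and 40.7 CPM with IL4. The groups did not overlap, and Noc3l rose by 0.31 ± 0.07 (adjusted p = 0.0026). Ppan was at 36.9, 46.5, 42.8 and 31.8 CPM and then 47.0, 52.3 and 54.5 CPM, and it rose by 0.38 ± 0.11 (adjusted p = 0.0125). Nolc1 was at 100, 121, 123 and 92.1 CPM and then 127, 137 and 161 CPM, and it rose by 0.38 ± 0.12 (adjusted p = 0.025). In all 3 genes, IL4 library 4 was the highest. Gnl3 rose by 0.40 ± 0.15, Ltv1 by 0.29 ± 0.10 and Heatr1 by 0.24 ± 0.08. Rrs1 was at 46.6, 65.3, 48.2 and 40.3 CPM with vehicle and 72.6, 73.2 and 43.4 CPM with IL4, so that the library numbered 4 lay among the vehicle libraries; its difference was 0.33 ± 0.16 (adjusted p = 0.14).

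These knockout counts moved with the libraries used. The 2 vehicle libraries high in Arg1 were also the highest vehicle libraries for Myc, Ppan and Nolc1. Without the 4 libraries high in Arg1, 17 of the 35 rose and none fell, beside 12.8% and 13.1% of all genes; the part of these libraries in the result was not tested otherwise. With the replicate block, 17 rose, beside 19.1% of all genes. Without the knockout libraries numbered 4, 1 was called (Rrs1, 0.45, adjusted p = 0.028), beside 7.91% of all genes higher and 6.47% lower. A fit of the knockout vehicle and IL4 libraries alone also called 1, a rise, beside 7.5% and 5.65%. Calls over all genes were thus fewer in both fits as well.

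**Figure D2:**
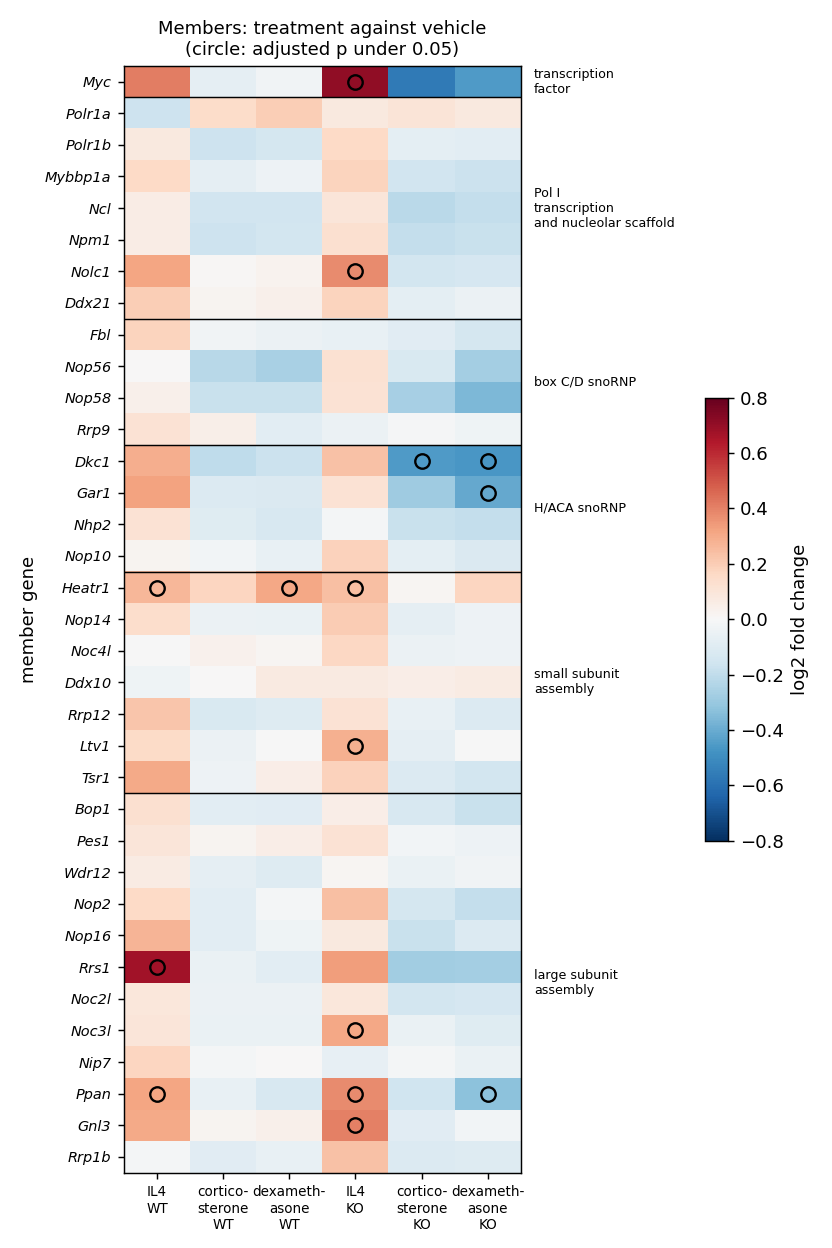
Fitted log2 fold change of each of the 35 genes (rows, by role) for each treatment against vehicle in each genotype (columns); colour gives the direction and size, and a circle marks an adjusted p under 0.05. The IL4 columns hold 3 and 7 circles, all on rises, and the glucocorticoid columns hold 1 rise and 4 falls.

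In wild-type cells corticosterone changed none of the 35 genes past the threshold, beside 5.94% of all genes called, 3.48% higher and 2.46% lower. edgeR's unadjusted p was under 0.05 for 1 of the 35, and DESeq2 called none. The median difference was -0.05, beside 0.01 over all genes. The gene closest to the threshold was Polr1b, the second-largest polymerase I subunit, at 35.2, 32.5 and 31.1 CPM with vehicle and 30.4, 30.0 and 27.6 CPM with corticosterone (-0.17 ± 0.07, adjusted p = 0.21). With the replicate block, 1 gene fell, the box C/D core gene Nop56 (-0.22, adjusted p = 0.026). The share of all genes called in that blocked fit is not given here, and the shares above are of the fit without the block. In the 3 same-numbered pairs, 19 of the 35 were lower in every pair and 3 higher, beside 23.9% and 27.6% of all genes.

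Dexamethasone in wild-type cells raised Heatr1 and no other of the 35, and lowered none, beside 7.66% and 6.03% of all genes. Heatr1 was at 161, 142 and 144 CPM, above the vehicle libraries of 119 to 121 CPM, and rose by 0.31 ± 0.08 (adjusted p = 0.0135). It thus stood higher than vehicle with IL4 and with dexamethasone, in comparisons that share the vehicle libraries. Polr1a was at 77.1, 81.8 and 83.9 CPM with vehicle and at 92.2, 92.3 and 94.1 CPM with dexamethasone; the groups did not overlap, and the difference was 0.20 ± 0.08 (adjusted p = 0.13). Ncl was at 675, 635 and 625 CPM with vehicle and 668, 529 and 544 CPM with dexamethasone, and Nop56 at 120, 96.6 and 102 CPM and then 108, 79.5 and 79.3 CPM. In both genes the dexamethasone library numbered 1, the one high in Arg1, stood apart from the other two. With the block, Nop56 (-0.26, adjusted p = 0.0038) and Ncl (-0.16, adjusted p = 0.0498) fell and Heatr1 rose, beside 9.87% of all genes lower and 12.2% higher. Without the libraries high in Arg1, Nop56 (-0.43), Dkc1 (-0.41) and Ncl (-0.28) fell and Heatr1 (0.24) rose, beside 6.35% and 7.46%. That fit left out dexamethasone 1 but kept vehicle 1, the highest vehicle library for Nop56, Dkc1 and Ncl, so it can enlarge these falls by itself. Without the wild-type libraries numbered 1, none of the 35 was called, beside 5.58% of all genes higher and 4.27% lower.

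In knockout cells the glucocorticoid calls among the 35 were few and all falls. In the fit without a block, falls were no more frequent among the 35 than among all genes, with either glucocorticoid. Corticosterone lowered Dkc1, which encodes the pseudouridine synthase dyskerin, and no other gene, beside 6.01% of all genes called higher and 6.07% lower. Dkc1 was at 36.4, 43.1, 47.7 and 31.0 CPM with vehicle and 26.5, 32.7, 30.4 and 26.1 CPM with corticosterone, with 1 vehicle library inside the treated range (-0.45 ± 0.14, adjusted p = 0.029). Dexamethasone lowered Gar1, Dkc1 and Ppan, beside 9.1% of all genes higher and 9.29% lower. Gar1, which encodes Dkc1's partner in the H/ACA particle, was at 23.1, 30.5, 26.6 and 23.6 CPM and then 17.7, 21.8, 19.8 and 18.8 CPM. Its groups did not overlap, and it fell by 0.41 ± 0.11 (adjusted p = 0.0092). Dkc1 was at 24.8, 33.8, 27.7 and 28.5 CPM with dexamethasone (-0.46 ± 0.14, adjusted p = 0.018), and Ppan at 28.2, 35.4, 31.9 and 30.4 CPM (-0.33 ± 0.10, adjusted p = 0.026). The box C/D gene Nop58 was nearest outside the threshold (-0.36 ± 0.13, adjusted p = 0.052). Of the 35 differences, 32 were below 0 with each glucocorticoid, and the medians were -0.11 and -0.11, beside 0.00 over all genes.

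Both knockout vehicle libraries high in Arg1 were the highest of their group for Dkc1 and Gar1. Without the 4 libraries high in Arg1, none of the 35 was called with either glucocorticoid, beside 2.78% higher and 3.59% lower of all genes for corticosterone and 5.56% and 6.54% for dexamethasone; the part of these libraries was not tested otherwise. The numbers support a replicate block only weakly for corticosterone. Same-numbered corticosterone and vehicle libraries correlated by 0.11 to 0.27, just past the limit of 0.1 used. In 3 of 4 pairs the corticosterone library correlated best with the vehicle library of its number. With that block, 10 of the 35 fell and none rose, beside 10% and 10.4% of all genes. The 10 included Myc, Dkc1, Gar1, Nhp2, Ncl, Npm1 and Rrs1, at log2 differences of -0.56 to -0.15.

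**Figure D3:**
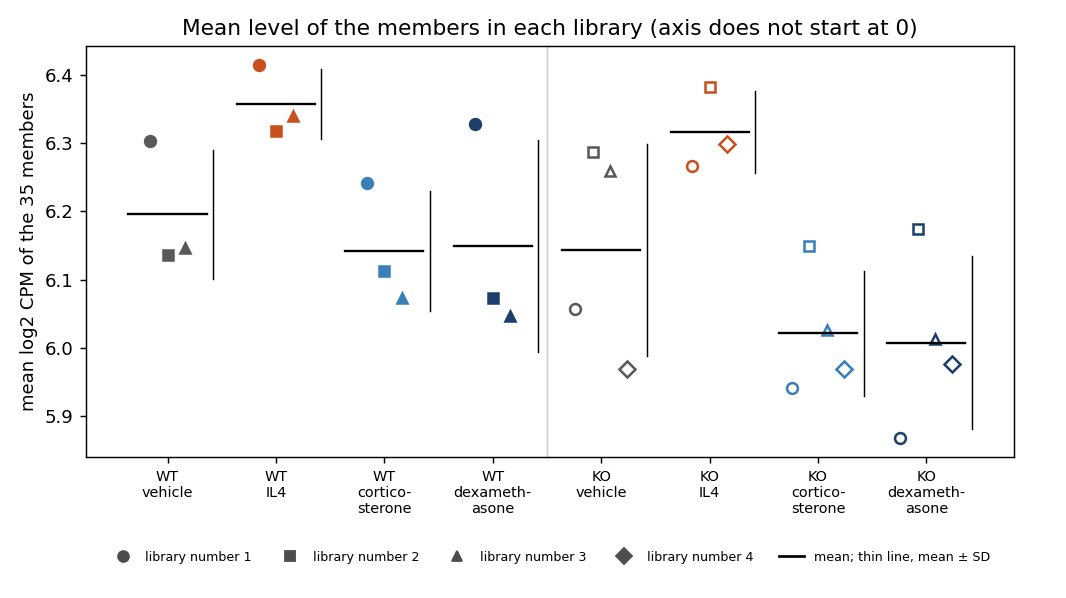
Mean log2 CPM of the 35 genes in each library (vertical axis, which does not start at 0), by genotype and treatment; markers show library numbers. In every group, the wild-type library numbered 1 or the knockout library numbered 2 is the highest.

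IL4 and dexamethasone were compared directly as well. In wild-type cells, 7 of the 35 genes were higher with IL4 and 1 lower, beside 15% and 16.7% of all genes. The median difference was 0.20, beside -0.03 over all genes. The higher ones were 4 large subunit factors (Rrs1, Ppan, Nop16 and Bop1), both partners Gar1 and Dkc1, and Polr1b. Rrs1, at 69.5, 59.7 and 53 CPM with dexamethasone against 95.5 to 108 CPM with IL4, differed by 0.75 ± 0.18 (adjusted p = 0.0017). Ppan, at 44.8, 37.0 and 37.5 CPM against 53.2 to 54.6 CPM, differed by 0.44 ± 0.12 (adjusted p = 0.0048). Gar1 was at 28.0, 22.9 and 20.3 CPM against 31.2, 30.0 and 34.9 CPM (0.44 ± 0.13, adjusted p = 0.0092). Dkc1 differed by 0.46 ± 0.16, Nop16 by 0.31 ± 0.11 and Polr1b and Bop1 by 0.22 each. Polr1a was the gene that was lower with IL4, at 72.2, 74.5 and 69.9 CPM against 92.2 to 94.1 CPM with dexamethasone (-0.36 ± 0.08, adjusted p = 0.0016). The polymerase I subunits Polr1a and Polr1b thus differed in opposite directions between these treatments, and in neither did the groups overlap. With the block, 23 were higher and Polr1a lower, beside 19.7% and 23% of all genes. Without the libraries high in Arg1, the counts were also 23 and 1, beside 17.1% and 16.3%. That fit left out dexamethasone 1 but kept IL4 1, so it broke a same-numbered pair and can move the differences by itself.

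In knockout cells 24 of the 35 genes were higher with IL4 than with dexamethasone and none lower, beside 20.2% and 17.8% of all genes (38% in all). The median was 0.28, beside -0.00 over all genes. By role, these were Myc, 6 of 7 polymerase I and scaffold genes, 2 of 4 box C/D genes, 3 of 4 H/ACA genes, 3 of 7 small subunit factors and 9 of 12 large subunit factors. Myc differed by 1.17 ± 0.22 (2.25-fold; adjusted p = 0.00019), with all IL4 libraries above all dexamethasone libraries. Ppan differed by 0.70 ± 0.11 (adjusted p = 1.65e-05), Dkc1 by 0.70 ± 0.15, Rrs1 by 0.61 ± 0.16, Gar1 by 0.53 ± 0.12, Nolc1 by 0.51 ± 0.12 and Nop58 by 0.48 ± 0.14. Noc3l differed by 0.40 ± 0.07 (adjusted p = 9.1e-05). The rRNA methyltransferase gene Nop2 and Gnl3 differed by 0.43, Nop56 by 0.40, Mybbp1a by 0.35, Rrp1b by 0.34, Tsr1 by 0.33, Npm1 by 0.31 and Nop10 and Ltv1 by 0.29. The remaining 7 called genes, Ncl, Nop14, Polr1b, Bop1, Ddx21, Noc2l and Pes1, differed by 0.16 to 0.28. Ncl was at 626, 698 and 681 CPM with IL4 and 521, 604, 552 and 519 CPM with dexamethasone. Nop56 was at 99.1, 106 and 102 CPM and at 69.7, 87.5, 78.8 and 75.3 CPM. Neither gene's groups overlapped. Groups did not overlap for 18 of the 35, all higher with IL4, beside 19% of all genes. The 11 not called were Polr1a, Fbl, Rrp9, Nhp2, Heatr1, Noc4l, Ddx10, Rrp12, Wdr12, Nop16 and Nip7, at -0.01 to 0.23. Polr1a was at 69.7, 71.1 and 78.4 CPM with IL4 and 63.2, 76.5, 72.4 and 80.1 CPM with dexamethasone, a difference of -0.00 (interval -0.16 to 0.16). Without the 4 libraries high in Arg1, of which knockout dexamethasone 2 is in this comparison, 27 of the 35 were higher and none lower, beside 19.6% and 19% of all genes. IL4 2 was kept in that fit. Without the knockout libraries numbered 4, 14 were higher and none lower, beside 15.6% and 14%. In a fit of these groups alone, 15 were higher and none lower, beside 15% and 13.3%.

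**Figure D4:**
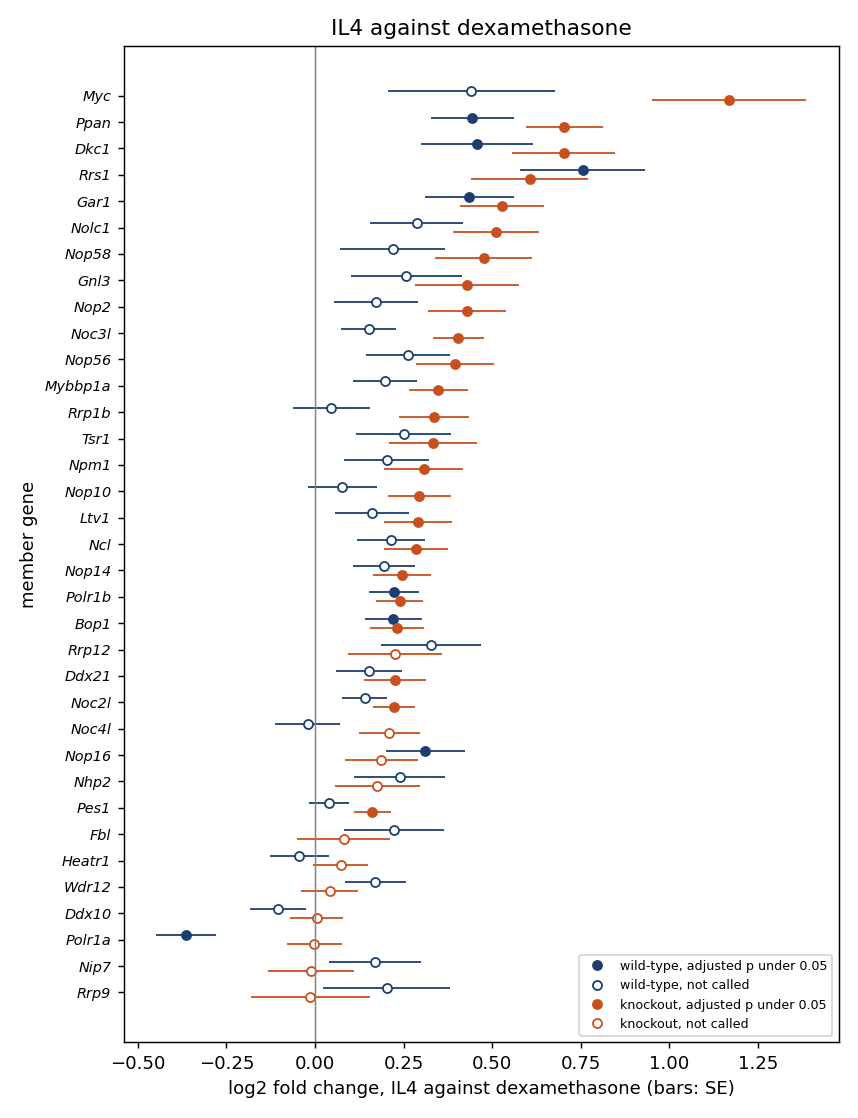
Log2 fold change of IL4 against dexamethasone for each of the 35 genes (rows), in wild-type and knockout cells (colours), with the SE as bars; filled points have an adjusted p under 0.05. Filled points number 8 in wild type, with Polr1a the single one below 0, and 24 in knockout.

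The genotypes were compared within each treatment. Calls among the 35 were few and all lower in knockout: 1 with vehicle (beside 8.47% of all genes called higher and 10.3% lower), 1 under IL4 (5.76% and 6.59%), 2 under corticosterone (5.46% and 8.95%) and 3 under dexamethasone (6.7% and 10.5%). They came from Polr1a, Rrs1 and Ppan. Polr1a with vehicle was at 77.1 to 83.9 CPM in wild type and 74.7, 61.6, 73.9 and 66.2 CPM in knockout (-0.23 ± 0.08, adjusted p = 0.043). With dexamethasone it was at 92.2 to 94.1 CPM and 63.2 to 80.1 CPM (-0.35 ± 0.08, adjusted p = 0.0030), and with corticosterone it differed by -0.27 ± 0.08 (adjusted p = 0.020). In these 3 comparisons the genotypes did not overlap. With IL4, Polr1a was at 69.9 to 74.5 CPM and 69.7 to 78.4 CPM, and the difference was 0.02 ± 0.08.

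Rrs1 with IL4 was at 108, 104 and 95.5 CPM in wild type and 72.6, 73.2 and 43.4 CPM in knockout, lower by 0.70 ± 0.18 on the log2 scale (1.62-fold; adjusted p = 0.011). It was also lower with corticosterone (-0.59 ± 0.16, adjusted p = 0.017) and dexamethasone (-0.55 ± 0.17, adjusted p = 0.023), again without overlap. With vehicle the difference of -0.36 ± 0.16 did not pass (adjusted p = 0.14). Ppan was lower with dexamethasone (-0.34 ± 0.11, adjusted p = 0.038). Myc did not pass in any of the 4, its differences being 0.08 under vehicle, 0.38 under IL4, -0.42 under corticosterone and -0.35 under dexamethasone. Stromal and neutrophil markers differed between the genotypes throughout, and their part in these results was not tested. Without the wild-type libraries numbered 1, which hold most of these markers, 0, 1, 0 and 1 genes were called with vehicle, IL4, corticosterone and dexamethasone (Rrs1 with IL4, Polr1a with dexamethasone). Of all genes, 5.74%, 2.47%, 2.64% and 4% were then higher and 7.77%, 4.48%, 6.05% and 8.08% lower. Without the libraries high in Arg1, Ppan and Nop56 were called lower with vehicle in place of Polr1a, beside 4.81% of all genes higher and 6.56% lower, and Polr1a and Myc (-0.62, adjusted p = 0.046) with dexamethasone, beside 3.53% and 5.79%. Fewer cells of a type and less RNA per cell cannot be told apart in such bulk samples.

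**Figure D5:**
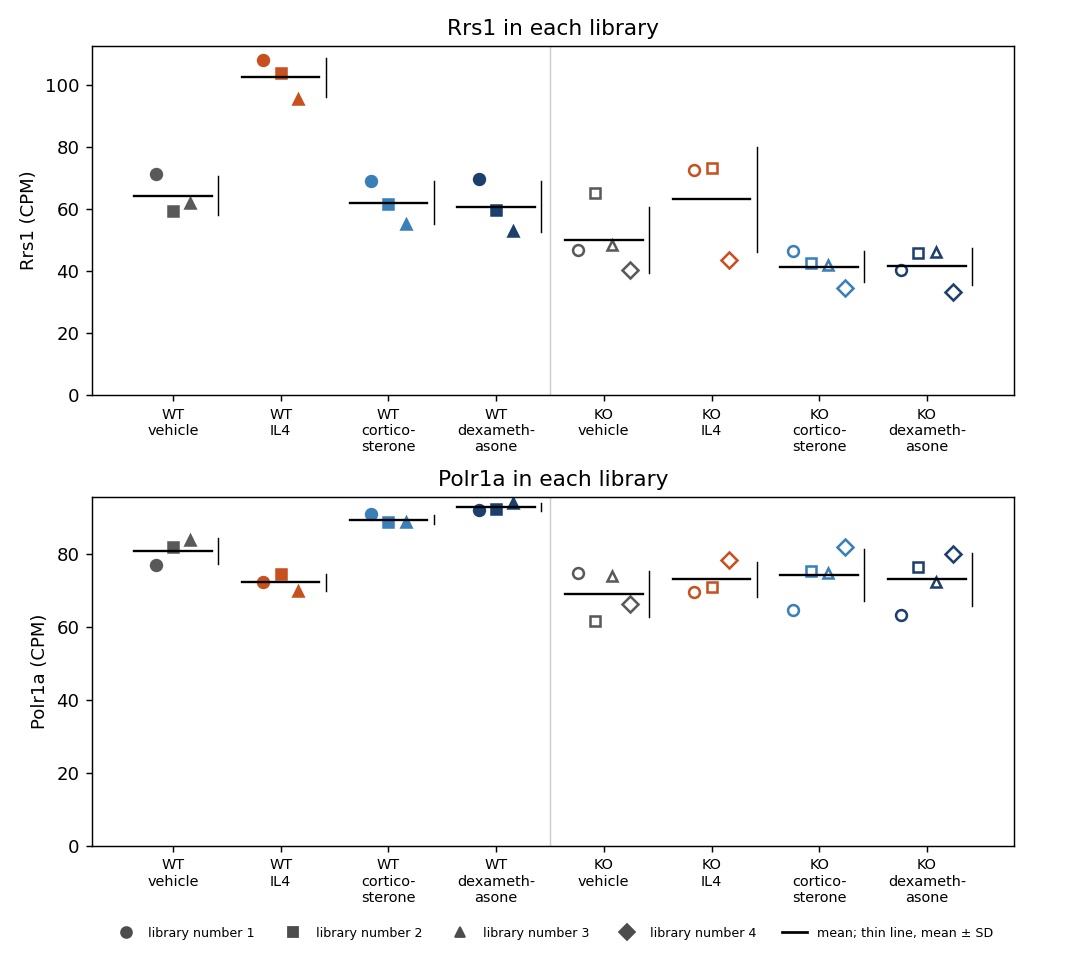
Rrs1 (top) and Polr1a (bottom) in each library, in CPM (vertical axes, from 0), by genotype and treatment. Markers show library numbers, thick bars the mean and thin lines the SD. Wild-type Rrs1 with IL4 lies at 95.5 to 108 CPM, above all other libraries, and wild-type Polr1a at 69.9 to 74.5 CPM with IL4 and 88.8 to 94.1 CPM with either glucocorticoid.

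Whether a treatment acted differently in the genotypes was tested as an interaction. None of the 35 genes passed for IL4, corticosterone or dexamethasone, beside 0.0274%, 0.0206% and 0.185% of all genes (0.00685%, 0.00685% and 0.048% higher; 0.0206%, 0.0137% and 0.137% lower). edgeR's unadjusted p was under 0.05 for 1, 0 and 0 of the 35, and DESeq2 called none. The 1 was Polr1a for IL4, whose response was more positive in knockout by 0.24 ± 0.11 (adjusted p = 0.54). For Myc the knockout response minus the wild-type response was 0.30 (interval -0.36 to 0.96) for IL4, -0.50 (interval -1.14 to 0.15) for corticosterone and -0.42 (interval -1.07 to 0.22) for dexamethasone. These intervals are wide, and a fall or rise called in 1 genotype is not shown to be absent from the other.

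The 2 glucocorticoids were given at different doses (500 and 100 nM), so a difference between them is one of these treatments and not of the compounds. Myc with corticosterone and dexamethasone averaged 82.1 ± 10.5 and 84.5 ± 13.8 CPM (SD, n = 3) in wild type. Fitted differences between them passed for none of the 35 genes in either genotype, beside 0.185% of all genes in wild type (0.151% higher with dexamethasone, 0.0343% lower) and 0.322% in knockout (0.178% and 0.144%). The unadjusted p was under 0.05 for 0 and 1 of the 35 (Heatr1 in knockout), and DESeq2 called none.

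Other genes of ribosome production were taken from lists. The shares of all genes called with IL4 were 14.8% higher and 15.3% lower in wild type and 14.5% and 12% in knockout. Of 44 other small subunit factors, 6 (13.6%) rose and 2 (4.55%) fell in wild type and 8 (18.2%) rose and 1 (2.27%) fell in knockout, so the shares that rose were near those of all genes. Utp25 rose in both (0.37 ± 0.07 and 0.42 ± 0.07), and so did Wdr46 (0.59 ± 0.12 and 0.40 ± 0.12; in knockout without the 4 libraries high in Arg1, 0.62). Of 42 other large subunit factors, 2 (4.76%) rose and 3 (7.14%) fell in wild type and 7 (16.7%) rose and 1 (2.38%) fell in knockout; the helicase gene Ddx31 rose (0.68 ± 0.08 and 0.56 ± 0.07) and Pelp1, a scaffold protein of the rixosome, fell (-0.40 ± 0.06 and -0.28 ± 0.06). Among 13 other genes of the polymerase I machinery the single call was Rrn3, its initiation factor, in knockout (0.24 ± 0.07). Of 21 polymerase III genes 4 (19%) rose in each genotype, with Gtf3c4 at 0.56 ± 0.08 and 0.45 ± 0.07. None of 13 exosome genes was called in wild type and 1, Exosc1, rose in knockout. Of 81 cytosolic ribosomal protein genes, 1 rose in wild type and none was called in knockout, with medians of 0.13 and 0.02. With the replicate block, 11 small subunit factors, 7 large subunit factors and 24 ribosomal protein genes rose in wild type, and 20, 13 and 1 in knockout, beside 19.6% and 19.1% of all genes higher. In knockout, 19 small and 13 large subunit factors rose without the 4 libraries high in Arg1, beside 12.8% of all genes; without the knockout libraries numbered 4, 1 and 1 rose, beside 7.91%.

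Between IL4 and dexamethasone in knockout cells, 20 of the 44 small subunit factors were higher with IL4 and 1 lower, and 13 of the 42 large subunit factors were higher and 3 lower, beside 20.2% of all genes higher and 17.8% lower. The counts without the 4 libraries high in Arg1 were 20 and 1, and 14 and 3, beside 19.6% and 19%. The small subunit factor that was lower was Wdr3 (-0.46 ± 0.07). Against vehicle, Wdr3 rose with dexamethasone in both genotypes (0.63 ± 0.07 and 0.60 ± 0.06), as did the large subunit export adaptor gene Nmd3 (0.36 ± 0.08 and 0.30 ± 0.07). They were the only calls of both subunit lists for dexamethasone in wild type, beside 7.66% of all genes higher and 6.03% lower.

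Among 14 genes of the Myc and Max network, Mxd4, which encodes a repressor that competes with Myc for Max, rose with IL4 in both genotypes (1.32 ± 0.15 and 0.74 ± 0.13) and with dexamethasone in wild type (0.94 ± 0.15). Fbxw7, the ubiquitin ligase subunit that marks Myc for degradation, rose with IL4 in wild type (0.51 ± 0.07). Mlxip rose with dexamethasone in both genotypes (0.90 ± 0.10 and 0.77 ± 0.09). These genes were picked by small adjusted p, and counts in each direction are not given for this list. In wild type, the mean log2 CPM of its tested genes was lower with IL4 (3.79 to 3.83) than with vehicle (3.90 to 4.02). Its summed CPM was higher with IL4 (628 to 682 against 527 to 579). In knockout the mean log2 ranges overlapped (3.88 to 3.95 with IL4, 3.84 to 4.07 with vehicle). Of 29 other known Myc targets, 6 (20.7%) rose and 1 (3.45%) fell with IL4 in wild type and 2 (6.9%) rose and 1 (3.45%) fell in knockout, with the shares of all genes given above; Tfrc, the transferrin receptor gene, rose from 760 to 2290 CPM on average (1.59 ± 0.29) in wild type. In knockout, 9 of the 29 (31%) fell with dexamethasone, beside 9.29% of all genes lower and 9.1% higher, and 8 (27.6%) fell and 1 rose with corticosterone, beside 6.07% and 6.01%. When the 4 libraries high in Arg1 were left out, 5 fell with dexamethasone, beside 6.54%, and 3 with corticosterone, beside 3.59%, and none rose. With the replicate block, which the numbers support only weakly for corticosterone, 16 fell with it, beside 10%, and 1 rose. The amino acid transporter gene Slc7a5 fell by 1.08 ± 0.17 and 0.78 ± 0.17 (without the libraries high in Arg1, by 1.14 and 0.69, adjusted p = 4.34e-05 and 0.0056). Between IL4 and dexamethasone, 14 of the 29 were higher with IL4 and 1 lower in each genotype, beside 15% of all genes higher and 16.7% lower in wild type and 20.2% and 17.8% in knockout; without the libraries high in Arg1 there were 22 higher and 0 lower in wild type and 18 and 1 in knockout. Of 29 cell cycle and DNA replication genes, 26 fell with IL4 in wild type and 22 in knockout, none rose, and the medians were -0.49 and -0.36, beside 15.3% and 12% of all genes lower. Without the wild-type libraries numbered 1, 17 fell in wild type (12.1% of all genes), and without the knockout libraries numbered 4, 10 fell in knockout (6.47%). Aurka, a mitotic kinase gene, fell by 0.72 ± 0.11 and 0.49 ± 0.11. Of 12 p53 target genes, 5 rose and 1 fell with IL4 in wild type, beside 14.8% of all genes higher, and 2 rose in knockout, beside 14.5%, with Zmat3 at 0.79 ± 0.17 and 0.69 ± 0.16. Without the wild-type libraries numbered 1, 1 rose and 1 fell in wild type. In knockout, 5 rose and 1 fell without the libraries high in Arg1, and none was called without those numbered 4.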

How the data were processed

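The values were raw counts of reads per gene, made by the authors and deposited as 1 table of 29872 genes by 27 libraries. Per the labels' protocols, poly(A) RNA was made into libraries with a directional kit and sequenced as 50 bp pairs. Per the submitters' processing notes, fastp 0.23.2, STAR 2.7.0, featureCounts (version not stated), edgeR 3.38.4 and the build mm10 were used; annotation and strand setting are not stated.

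Counts were analysed with edgeR 4.0.16 in R 4.3.3: filterByExpr (minimum count 10; 14589 genes left), TMM scaling, and 1 quasi-likelihood fit (legacy dispersion, robust) with a mean for each of 8 groups. P-values were adjusted by Benjamini and Hochberg over all tested genes, with calls made below 0.05. The biological coefficient of variation was 0.122. Log2 differences are fitted values with their SE; intervals cover 95%. CPM is a gene's count over the TMM-scaled library size, so a level is relative to the library. Scripts were tested on simulated data. Depth was at least 20162729 counts a library. No pair of libraries of the same group agreed within sampling noise.

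The 35 genes, the other gene lists and the tests were chosen with earlier results of these data known. In the lists, Exosc6 and Tpsb2 were not analysed here. Named were all 35 genes; Myc library by library, likewise leading genes of each role; the genes nearest the threshold; and up to 3 genes of each other list with the smallest adjusted p. Promoters came from RefSeq; gene positions from GENCODE vM21 on GRCm38 (29815 identifiers found).

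Labels number the libraries within groups. Taken across genes, the deviations of libraries that carry one number correlated, in every pair by over 0.1, for IL4 and vehicle (0.28 to 0.71 in wild type, 0.11 to 0.28 in knockout), for corticosterone and vehicle (0.28 to 0.67 and 0.11 to 0.27), for IL4 and dexamethasone (0.19 to 0.56 and 0.16 to 0.23), for both glucocorticoids (0.22 to 0.64 and 0.26 to 0.31) and for wild-type dexamethasone and vehicle (0.24 to 0.64). For these, the blocked fit stands by each result that it moved. Alternatives were other scalings, no filter, DESeq2 1.42.0, the block, the compared groups alone, each library left out, and 3 sets of libraries left out that were chosen after seeing the data.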

Additional observations from a re-analysis of the deposited data

Results flagged for a closer look

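In 5 of 108 groups of 4 libraries tested over 36 genes, 1 library lay far from the other 3; chance alone puts about 5% of such groups past the limit used. In knockout vehicle cells, Polr1b was at 33.4 CPM in library 3 and at 29.0 to 29.4 CPM in the others; that library is 1 of the 4 high in Arg1. In knockout corticosterone cells, library 1 was the lowest for 3 genes: Polr1b at 26.1 CPM (others 29.4 to 29.9), Mybbp1a at 205 CPM (others 228 to 231) and Rrp1b at 18.6 CPM (others 20.6 to 20.8). In the same group, Ppan was at 41.1 CPM in library 2 and at 32.9 to 33.9 CPM in the others.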

How the results depend on the processing

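Counts of called genes among the 35 depended on the setting. Directions were followed only for genes called in the main fit (all libraries, no block). The alternatives share most libraries with it, so a reversal was unlikely from the start, and none was seen. Counted once for each alternative, these single-gene results kept their side of the threshold 714 times and lost it 196 times, and the cause was not tested. With the replicate number as a block, calls against vehicle came to 11 (IL4), 1 (corticosterone) and 3 (dexamethasone) in wild type and to 17, 10 and 14 in knockout, and to 24 for wild-type IL4 against dexamethasone. Knockout dexamethasone and vehicle do not pair by the rule used (correlations 0.0052 to 0.36), nor do the genotypes, whose counts under the block were those given. With only the compared groups fitted (fewer libraries), there were 8 calls for wild-type IL4, 1 for knockout IL4, 2 for knockout corticosterone and 15 for knockout IL4 against dexamethasone, and for the genotypes 0 with vehicle, 0 with IL4 and 4 with corticosterone. Scaling by total counts gave 0 for wild-type dexamethasone, 3 for knockout IL4 and 7 for knockout dexamethasone. Without the filter there were 3 for knockout IL4, 0 for knockout corticosterone, 0 and 1 for the genotypes with vehicle and with corticosterone, and 5 for wild-type IL4 against dexamethasone. DESeq2 called 3 for knockout corticosterone. Where the share of all genes called in a fit is not given, a change in its count is not shown to be particular to the 35 genes.

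Without the 4 libraries high in Arg1, 4 were called for wild-type dexamethasone, 17 for knockout IL4, 0 for each knockout glucocorticoid, 2 for the genotypes with vehicle and 24 for wild-type IL4 against dexamethasone. Without the wild-type libraries numbered 1 there were 0 for wild-type dexamethasone and 0, 0 and 1 for the genotypes with vehicle, corticosterone and dexamethasone. Without the knockout libraries numbered 4 there were 1 for knockout IL4, 0 for the genotypes with vehicle and 14 for knockout IL4 against dexamethasone.

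Leaving out 1 library at a time gave 1 (without wild-type vehicle 2 or IL4 1) to 6 (without vehicle 1) for wild-type IL4, 0 to 0 for wild-type corticosterone and 1 to 1 for wild-type dexamethasone. In knockout it gave 1 (without vehicle 4) to 10 (without IL4 1) for IL4, 0 (without vehicle 2 or 3, or corticosterone 1, 3 or 4) to 5 (without vehicle 4) for corticosterone and 2 to 8 (without dexamethasone 2) for dexamethasone. For the genotypes it gave 0 (without any wild-type library) to 1 with vehicle, 0 (without wild-type 1 or knockout 4) to 2 with IL4, 0 (without wild-type 1) to 3 (without knockout 2) with corticosterone and 1 (without wild-type 1 or knockout 4) to 7 (without wild-type 3 or knockout 2) with dexamethasone. For IL4 against dexamethasone it gave 3 (without dexamethasone 3) to 23 (without dexamethasone 1) in wild type and 16 to 25 in knockout. Interactions and the 2 glucocorticoids gave 0 throughout. The 95% intervals printed beside differences that did not pass show what 3 or 4 libraries a group can resolve.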
